A study of Mus musculus with 16 samples.

Results

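Thyroid primordium cells, or thyroid cells for short, are the cells to which the authors' mapping onto an atlas of mouse gastrulation gave that name. They numbered 297 of 37841 analysed cells, after doublet calls had been set aside. The cells came from chimeric embryos, in which *Stat3* null embryonic stem cells (ESCs) that carried a tdTomato label had been placed in blastocysts of wild-type (WT) hosts. Both the ESCs and the host blastocysts were of the outbred CD1 stock. In the null line, exons of *Stat3* had been replaced by a neomycin resistance gene, and a plasmid-borne nuclear tdTomato reporter (H2B-tdTomato) had been added under puromycin selection, after which a line grown from a picked colony was used. Chimeras with a moderate donor contribution were collected at embryonic day (E) 7.5, E8.5 or E9.5, pooled at the first 2 stages, dissociated and sorted into tdTomato-positive (null) and tdTomato-negative (WT) cells. WT cells therefore developed beside null cells in the same chimeras. All null cells came from that ESC line and all WT cells from the hosts. Loss of *Stat3* therefore cannot be told apart from ESC origin, the reporter or the picked line. Genotype below stands for all of these together. Each sorted fraction was profiled by droplet 3′ RNA sequencing in 16 libraries, with each transcript molecule counted once through its unique molecular identifier (UMI). Libraries are lettered within a group, and a letter is only a name. At E9.5 there were 4 libraries per genotype but, by the methods, fewer embryos, so some libraries of a genotype came from the same embryo. Which ones is not known here. The p-values therefore measure the spread between libraries, and taken as statements on embryos those that rest on E9.5 libraries are too small. The main expression fit took its spread from the libraries of both stages together, so its E8.5 p-values rest in part on E9.5 libraries too.

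The thyroid gland arises as a thickening in the ventral midline of the pharyngeal endoderm, buds off and migrates down the neck. Its founder cells are known by the joint presence of the transcription factors *Nkx2-1*, *Hhex*, *Foxe1* and *Pax8*, each of which is also found alone in other tissues. *Nkx2-1* marks the lung bud and the ventral forebrain, *Hhex* the liver bud and endothelium, *Foxe1* the oral and pharyngeal epithelium, and *Pax8* the otic placode and the kidney. The genes that make thyroid hormone are switched on only later, once follicles form.

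At E8.5 the null libraries held 74 (A) and 18 (B) Thyroid primordium cells and the WT libraries held 16 (A) and 24 (B). At E9.5 the null libraries held 39, 26, 9 and 11 (A to D) and the WT libraries 22, 17, 4 and 32. E7.5 gave 5 such cells, 3 in null A and 2 in WT A, and none in the other libraries of that stage. None of these 5 had a UMI of *Nkx2-1*, *Foxe1* or *Pax8*, while 3 had *Hhex*, so the label was not borne out there and E7.5 was left out of every comparison. A thyroid cell carried between 10193 and 82552 UMIs, and the median per library ran from 13331 (E8.5 WT B) to 37309 (E9.5 null C) among the late libraries. The authors' mapping score, the share of the nearest atlas cells with the same label, had a median over cells of 0.92 at E8.5 and 0.72 at E9.5. By library the median was 0.96 and 0.90 in E8.5 null A and B and 0.86 and 0.70 in E8.5 WT A and B, without overlap. At E9.5 it was 0.64 to 0.76 in null and 0.64 to 0.82 in WT libraries. The part of the less certain labels of E8.5 WT cells in the E8.5 comparisons was not tested. A tdTomato UMI was present in 80.8% to 100% of the cells of each null late library. *Stat3* was at 0 to 6.87 counts per 1000000 UMIs of a library's thyroid cells (CPM) in the null and 0 to 7.46 in the WT libraries with at least 5 cells, too few UMIs to check the genotype, and 3′ tags outside the replaced exons would not check it in any case. Over all cells 488 barcodes occurred in more than 1 library. No barcode was shared by thyroid cells of different libraries, but 4 thyroid cells had a barcode that also occurred in another library, in a cell with another label.

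The label was checked against its defining markers first. *Foxe1* was higher in Thyroid primordium cells than in any other cell type with a level at that stage, with a mean of 234 CPM among 68 types at E8.5 and 339 CPM among 71 types at E9.5. Pharyngeal endoderm, which came next, had 13.9 and 82.6 CPM. *Nkx2-1* ranked 2 of 68 at E8.5 (42.1 CPM), after ventral forebrain progenitors (146 CPM), and 3 of 71 at E9.5 (56.6 CPM), after ventral forebrain progenitors and Foregut. *Hhex* ranked 4 of 68 at E8.5 (89.4 CPM) and 7 of 71 at E9.5 (53.4 CPM), behind endothelial types and Foregut among others. *Pax8* ranked 3 at both stages (48.9 and 26.8 CPM). These levels describe the label and are no test, since the mapping used the same transcripts.

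The marker levels were not alike in every library. *Foxe1* was present throughout, at 399 and 142 CPM in E8.5 null A and B, 220 and 177 CPM in E8.5 WT A and B, 308, 306, 328 and 477 CPM in E9.5 null A to D and 247, 316 and 388 CPM in E9.5 WT A, B and D. *Nkx2-1* stood at 82.4 and 43.6 CPM in E8.5 null A and B and at 30.5 and 11.8 CPM in E8.5 WT A and B. At E9.5 it stood at 10.6, 91.4, 69.8 and 151 CPM in null A to D and at 0, 38.9 and 34.3 CPM in WT A, B and D. By level, the low E9.5 libraries are null A and WT A. The 23 UMIs of *Nkx2-1* in null C all came from 1 of its 9 cells. E9.5 WT A had no UMI of *Nkx2-1* or *Hhex* in any of its 22 cells, which allows a share of cells with a UMI of up to 13.6% (3 counts of the total), and E9.5 null A had *Nkx2-1* in 4 and *Hhex* in 2 of 39 cells. *Hhex* was also lowest in null A and WT A of that stage, at 2.11, 93.7, 82.0 and 134 CPM in E9.5 null A to D and 0, 31.1 and 31.3 CPM in E9.5 WT A, B and D. Results on shares, detection and atlas day are given with and without null A and WT A of E9.5, and so are the calls on named genes that were lost without both. For expression, that fit took in all other libraries with at least 5 cells, so that null C and D entered it as well. E9.5 WT C had 4 cells and no UMI of *Nkx2-1* or *Hhex*, and was left out of the tests of expression.

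**Figure D1:**
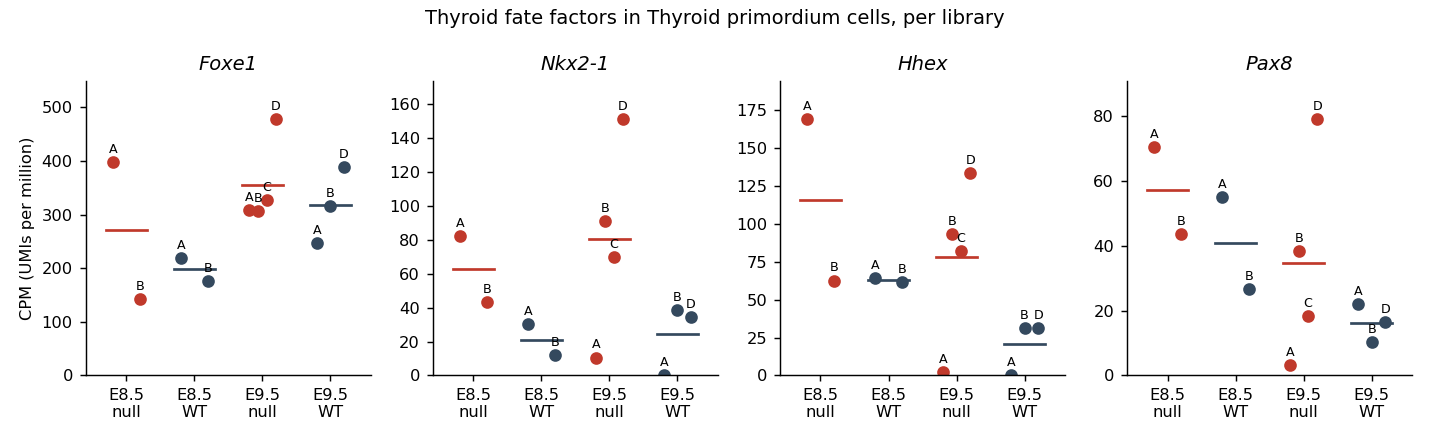
Level of the 4 thyroid fate factors in Thyroid primordium cells, in CPM on linear axes, with 1 point per library of at least 5 cells (letters name libraries, red null, dark blue WT, lines are group means). *Foxe1* lay between 142 and 477 CPM, while *Nkx2-1* and *Hhex* were at 0 in E9.5 WT A and at 10.6 and 2.11 CPM in E9.5 null A.

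Single cells divided by which of the fate factors they held. Of 292 cells at E8.5 and E9.5, 228 had a UMI of *Foxe1*, 83 of *Hhex*, 83 of *Pax8* and 61 of *Nkx2-1*. *Nkx2-1* and *Hhex* occurred together in 53 cells, and all 4 factors, the joint mark of founder cells, in 43. Most cells with the label thus did not show that joint mark, though a missing UMI does not show that a gene was off. In 133 cells (45.5%) *Foxe1* was the only fate factor seen, and 41 cells had none of the 4. Cells with *Nkx2-1*, *Hhex* or *Pax8* made up 57.6% of the E8.5 and 26.3% of the E9.5 cells. The shares lay close together among the E8.5 libraries (58.1% and 61.1% in null, 56.3% and 54.2% in WT) and further apart at E9.5, from 17.9% (null A) to 50% (WT C, 4 cells). Free RNA in the droplets did not reach these shares in tissues that should lack the factors. Among 2250 Dermomyotome and Sclerotome cells, 1.24% had a UMI of *Nkx2-1*, 1.29% of *Hhex*, 0.400% of *Foxe1* and 1.29% of *Pax8*, at 29613 UMIs per cell against 22490 in thyroid cells (medians over library medians). In the neighbouring Pharyngeal endoderm, *Nkx2-1* was seen in 0.840% and *Hhex* in 2.38% of 714 cells, but *Foxe1* in 20.6% and *Pax8* in 26.2%.

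**Figure D2:**
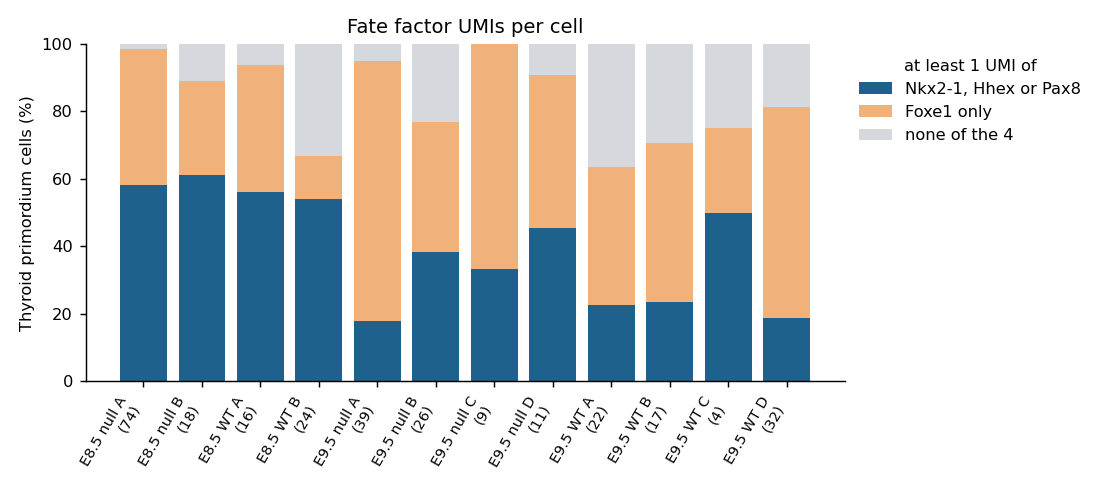
Share of Thyroid primordium cells (y axis, %) in each E8.5 and E9.5 library (x axis, number of cells in brackets) with a UMI of *Nkx2-1*, *Hhex* or *Pax8* (blue), of *Foxe1* alone (orange) or of none of the 4 (grey). The blue share was 54.2% to 61.1% at E8.5 and 17.9% to 50% at E9.5.

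Cells with both *Nkx2-1* and *Hhex*, called double-positive here, differed from *Foxe1*-only cells well beyond the genes that defined them. In the 5 libraries with at least 3 cells of each kind (E8.5 null A and B, E9.5 null B and D, E9.5 WT D), levels were compared within each library as a description with no test, since the cells were chosen on these transcripts. In that order the libraries held 26, 4, 7, 4 and 3 double-positive and 30, 5, 10, 5 and 20 *Foxe1*-only cells. *Foxe1* itself was alike, at 411 ± 73.9 and 423 ± 195 CPM (SD, n = 5 libraries). *Bcl2*, which blocks mitochondrial cell death, was at 271 ± 104 against 12.8 ± 15.97 CPM, a median log2 ratio of 4.21, and was higher in 5 of 5 libraries. *Prlr*, the prolactin receptor, was at 131 ± 106 against 0.451 CPM. *Cpne4*, a calcium-dependent membrane-binding protein, was at 187 ± 95.6 against 1.56 CPM, and *Fst*, which binds and blocks activin, at 117 ± 121 against 3.27 CPM. *Isl1*, a homeobox gene of the pharyngeal floor, was at 346 ± 58.9 against 178 ± 26.1 CPM.

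Genes on the other side were led by *Shh*, the Hedgehog ligand of foregut epithelium, at 5.43 ± 9.91 CPM in double-positive against 114 CPM in *Foxe1*-only cells (median log2 ratio -6.55, lower in 5 of 5 libraries). *Pitx1*, a homeobox gene of the hindlimb and pituitary, was at 25.3 against 169.6 CPM. *F3*, which encodes tissue factor, was at 2.17 against 51.6 CPM, *Wnt4* at 2.72 against 55.0 CPM, *Sulf1*, an extracellular sulfatase, at 10.1 against 166 CPM and *Car4*, a carbonic anhydrase, at 6.92 against 114 CPM. *Plk1*, a mitotic kinase, was at 22.0 ± 33.6 and 64.0 ± 36.9 CPM and *Tpx2*, a spindle protein, at 48.3 ± 78.9 and 133 ± 83.4 CPM. Each was lower in 4 of 5 libraries, and in double-positive cells each SD exceeded its mean. Pan-epithelial genes were near equal, with *Epcam* at 896 and 830.4 CPM and *Krt18* at 1036 and 862 CPM. The double-positive cells were the shallower ones in every one of the 5 libraries (median 13380 to 24108 UMIs against 19882.5 to 36435), and they mapped to later atlas days in each (9.02 against 8.82 days in E8.5 null A).

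**Figure D3:**
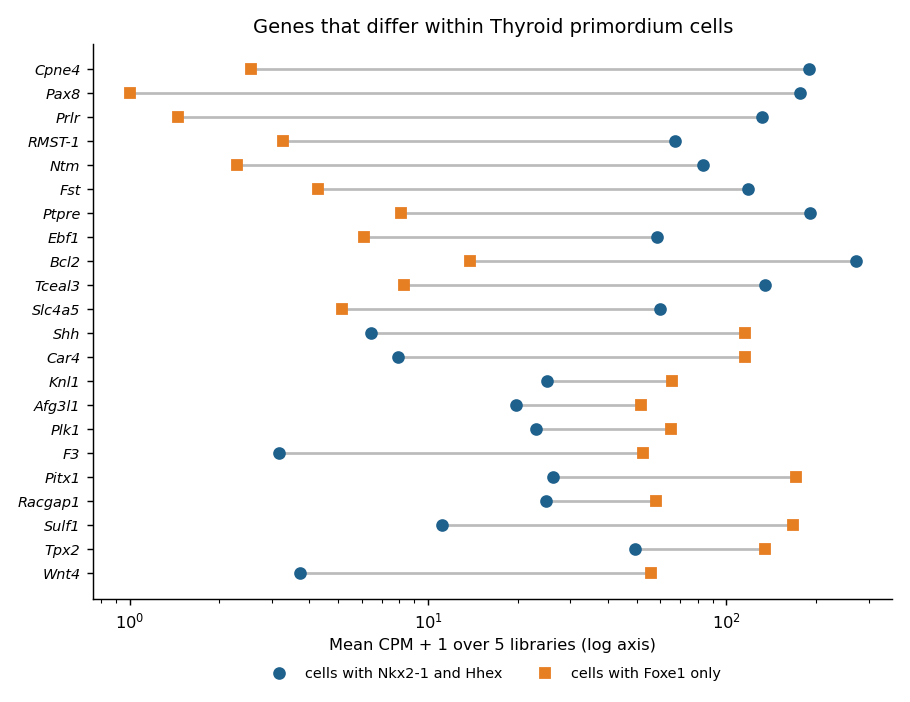
Mean CPM + 1 over 5 libraries (x axis, log scale) of genes among the 12 with the largest median log2 ratio in each direction between cells with both *Nkx2-1* and *Hhex* (blue circles) and cells with *Foxe1* alone (orange squares). *Shh* was at 5.43 and 114 CPM and *Bcl2* at 271 and 12.8 CPM, in that order.

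The hormone-making genes were at or near 0. *Duox1* and *Duox2*, which make hydrogen peroxide for iodination, *Slc26a4* and *Dio1* had 0 UMIs over the E8.5 and E9.5 libraries. *Tg*, the hormone's precursor protein, had 3 UMIs and *Tshr*, the receptor of thyroid-stimulating hormone, had 7. The summed level of the list was at most 44.7 CPM in any library, and no member passed the filter on low counts.

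Against its neighbours, the pool of thyroid cells was described over the 9 libraries with more than 15 such cells. Over Pharyngeal endoderm, *Nkx2-1* had a median log2 ratio of 5.14 (38.2 against 0.440 CPM). Among genes with at least 50 CPM on average in the higher cell type, the highest beside *Hhex* and *Foxe1* were *Apela*, a peptide ligand of the apelin receptor (85.9 ± 88.6 against 2.72 ± 1.58 CPM, n = 9), *Nrxn3* (65.7 ± 44.2 against 6.26 ± 2.87), *Shh* (55.8 ± 30.4 against 6.19 ± 4.50) and *Tbx3*, a T-box repressor (147 ± 63.8 against 23.4 ± 5.71). Each was higher in 9 of 9 libraries. The *Shh* level is one of the pool, since double-positive cells had 5.43 CPM and *Foxe1*-only cells 114 CPM in the libraries compared above. *Pyy*, a gut hormone, was at 96.3 ± 129 against 10.8 CPM. *Fgf8*, a growth factor of pharyngeal pouches, was at 46.9 ± 63.4 against 198 ± 45.6 CPM, and *Vgll2* and *Irx1* were lower in 9 of 9 libraries as well. *Hist1h1b*, a linker histone, was at 293 ± 76.5 against 716 ± 109.9 CPM and *Ccne1* (cyclin E1) at 53.1 ± 19.3 against 116 ± 19.2 CPM. Against Foregut, transcripts of liver and yolk sac were low, with *Ttr* at 7.36 against 842 CPM and *Afp* at 1.27 against 779.9 CPM. *Gata6*, a regulator of foregut and heart, was at 4.16 against 80.1 CPM, while *Nkx2-3*, *Nkx2-5* and *Pitx1* were higher in 9 of 9 libraries. Of the fate factors, *Foxe1* (278 against 6.58 CPM) and *Pax8* (31.8 against 0 CPM) were higher than in Foregut in 9 of 9 libraries. *Nkx2-1* was at 38.2 ± 31.2 against 28.8 ± 35.8 CPM and higher in 6 of 9. *Hhex* was at 57.3 ± 52.0 against 134 ± 85.3 CPM and higher in 1 of 9.

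The first question between genotypes was whether null cells received the Thyroid primordium label as often as host cells did. At E8.5 thyroid cells made up 1.93% and 1.57% of the cells in null A and B and 0.629% and 0.627% in WT A and B. The exact binomial 95% intervals, which cover counting error only, were 1.52% to 2.42% in null A and 0.933% to 2.47% in null B against 0.360% to 1.02% in WT A and 0.402% to 0.932% in WT B. Both null libraries thus lay above both WT libraries, at a mean of 1.75% ± 0.255 against 0.628% ± 0.00105 (SD, n = 2 each). The log2 fold change in abundance was 1.49 (SE 0.355), with an edgeR adjusted p of 0.352 over 68 cell types, 0% of which were called in either direction. Of the endoderm cells, thyroid cells were 26.9% and 18.6% in null and 12.3% and 9.16% in WT libraries. An exact permutation of 2 against 2 libraries cannot go below p = 0.333.

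At E9.5 thyroid cells made up 0.901%, 1.08%, 0.565% and 0.712% of the cells in null A to D and 0.714%, 0.644%, 0.210% and 0.809% in WT A to D. The ranges overlapped, and the log2 fold change was 0.41 (SE 0.50, edgeR adjusted p = 0.965, with 1.41% of 71 types called), or 0.38 without null A and WT A (edgeR adjusted p = 0.991). Of the endoderm cells they were 17.9%, 29.5%, 22.0% and 16.4% in null and 20.4%, 21.0%, 9.52% and 18.8% in WT libraries. Over both stages the thyroid share of the endoderm was higher in null libraries by 8.01 percentage points (22.1% against 14.1%), which did not pass the threshold in an exact two-sided permutation of genotype within stages (p = 0.0714, n = 6 libraries each, 420 arrangements). As a share of all cells the difference was 0.671 percentage points (exact permutation p = 0.0476), and without E9.5 null A and WT A the endoderm difference was 9.10 points (exact permutation p = 0.0667). The genotype effect did not differ detectably between E9.5 and E8.5 (log2 difference -1.05, SE 0.75, edgeR adjusted p = 1.00, with 1.30% of 77 types called). A share moves with every other cell type of the library, so more thyroid cells and fewer others cannot be told apart. The type called at E9.5 was Erythroid, which was lower in null libraries (log2 fold change -4.03, edgeR adjusted p = 3.24e-13). Its part in the share of all cells was not tested.

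**Figure D4:**
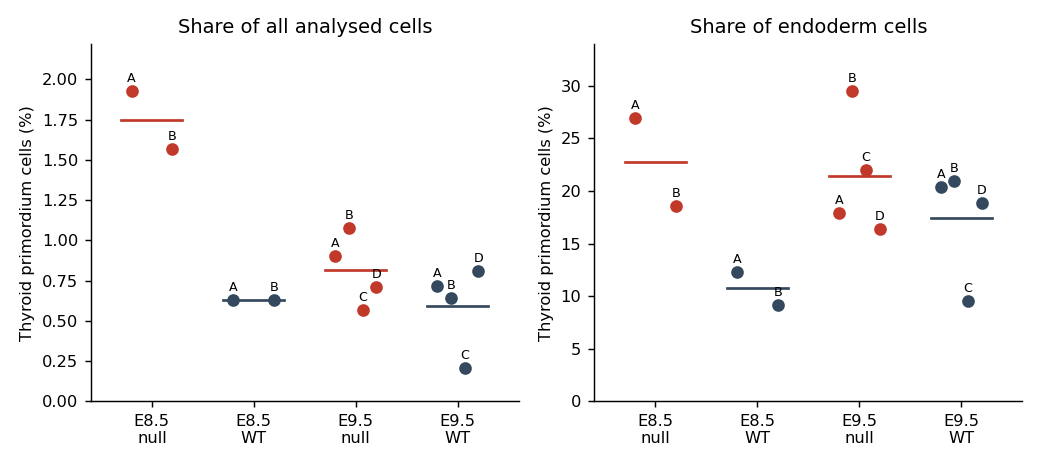
Thyroid primordium cells as a share of all analysed cells (left, %) and of endoderm cells (right, %), with 1 point per library (letters), red for null and dark blue for WT, and group means as lines. At E8.5 both null libraries (1.93% and 1.57% of all cells) lay above both WT libraries (0.629% and 0.627%), while the E9.5 groups overlapped.

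Among the cells with the label, double-positive cells made up 35.1% and 22.2% in E8.5 null A and B and 12.5% and 8.33% in E8.5 WT A and B. At E9.5 they were 5.13%, 26.9%, 11.1% and 36.4% in null A to D and 0%, 11.8%, 0% and 9.38% in WT A to D. The cells were chosen after values had been seen, so these shares have no test. For the factors themselves, each cell was thinned to 10000 UMIs, which left out no cell, and detection was compared over the 11 libraries with at least 5 cells. *Nkx2-1* was seen in 32.4% and 27.8% of the cells in E8.5 null A and B and in 12.5% and 4.17% in E8.5 WT A and B. At E9.5 the shares were 7.69%, 26.9%, 11.1% and 36.4% in null and 0%, 11.8% and 12.5% in WT A, B and D. Averaged over stages the null share was 17.1 percentage points higher (25.3% against 8.21%), with an exact two-sided permutation p of 0.0476 that became 0.190 after Benjamini-Hochberg adjustment over the 4 factors, and so did not pass. Without thinning the difference was 21.3 points (exact permutation, adjusted p = 0.0952). *Foxe1* differed by 15.3 points, *Hhex* by 6.62 and *Pax8* by 6.53 (exact permutation p = 0.205, 0.305 and 0.348). Without E9.5 null A and WT A the difference in *Nkx2-1* was 17.2 points (exact permutation p = 0.0667, adjusted p = 0.267), and those in *Foxe1*, *Hhex* and *Pax8* were 11.1, 7.06 and 7.20 points (exact permutation p = 0.350, 0.300 and 0.317). Single libraries moved these values. *Foxe1* differed by 6.41 points without E8.5 WT B, 8.92 without E8.5 null A and 24.1 without E8.5 WT A. *Hhex* differed by 2.08 points without E8.5 null A, 3.87 without E9.5 null D and 11.2 without E8.5 null B. *Pax8* differed by 2.88 points without E8.5 WT B, 2.996 without E9.5 null D and 10.2 without E8.5 WT A. Without thinning *Foxe1* differed by 23.5 points (exact permutation p = 0.0476, adjusted p = 0.0952). Nor did the mean atlas day of the cells differ detectably, at 8.89 days in null and 8.80 in WT libraries (difference 0.0965 days, exact permutation p = 0.290), or without E9.5 null A and WT A (0.0861 days, exact permutation p = 0.400). The difference was 0.0376 days without E8.5 null A, 0.155 without E8.5 null B, 0.150 without E8.5 WT A and 0.0431 without E8.5 WT B.

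Expression was tested on UMIs summed per library over thyroid cells, in 9 libraries with more than 15 cells (E8.5 null A and B, WT A and B, E9.5 null A and B, WT A, B and D). These held 327697 to 1431311 UMIs each. Calls needed an edgeR adjusted p under 0.05 and a log2 fold change beyond 1 in size. Between null and WT cells of E8.5, 4 of 7195 genes were called (0.0556%), 3 higher (0.0417%) and 1 lower (0.0139%), while 390 genes (5.42%) had an unadjusted p under 0.05. At E9.5, 1 gene was called (0.0139%), which was higher, and 319 (4.43%) had an unadjusted p under 0.05. None was called lower at E9.5 by edgeR, where 170 genes had a lower level at an unadjusted p under 0.05. The mean effect over both stages gave 5 genes (0.0695%), 3 higher and 2 lower. Where leaving out a library left a group with 1 library, as in both E8.5 groups and in E9.5 null, that library was assumed to vary like those of the other groups. The E8.5 count was 7 without null A or null B and 1 without WT A of that stage, and the E9.5 count was 6 without either E8.5 null library and 3 without E9.5 null B, WT B or WT D. The count over both stages became 10 or 9 when null A or null B of E8.5 was dropped, and 11 when E9.5 null A was. None of the 4 fate factors was called. *Nkx2-1* had a log2 fold change of 1.70 (SE 1.51) at E8.5 and 1.06 (SE 1.19) at E9.5, *Hhex* 1.02 (SE 1.33) and 1.17 (SE 1.46), *Pax8* 0.60 (SE 0.82) and 0.31 (SE 0.91) and *Foxe1* 0.56 (SE 0.49) and -0.03 (SE 0.40). Each of these standard errors was large beside the value. The sign of the *Foxe1* value at E8.5 turned without null A (-0.44), and those of *Nkx2-1*, *Hhex* and *Pax8* at E9.5 turned without null B (-1.14, -3.15 and -2.27). Without E9.5 null A and WT A the E9.5 values of *Nkx2-1*, *Hhex*, *Pax8* and *Foxe1* were 1.48, 1.69, 1.59 and 0.040, and none was called (edgeR adjusted p = 0.137 to 0.999).

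*Amot* was the gene with the smallest p at E8.5. It encodes angiomotin, a scaffold at cell junctions that holds the Hippo pathway effector YAP out of the nucleus, and lies on chromosome X from 145446425 to 145505181 on the minus strand (GRCm38). It stood at 490.5 and 389.7 CPM in null A and B against 143 and 206 CPM in WT A and B (log2 fold change 1.35, SE 0.19, edgeR adjusted p = 8.53e-04). The groups did not overlap, as for 34.3% of all genes tested. At E9.5 *Amot* was at 263 and 325 CPM in null A and B and 171, 199.5 and 225 CPM in WT A, B and D (log2 fold change 0.58, SE 0.16, edgeR adjusted p = 0.616). These libraries did not overlap, as for 19.2% of genes tested. The smaller null C and D, at 249 and 271 CPM, did not enter that share but also lay above the WT libraries. Over both stages the log2 fold change of *Amot* was 0.967 (edgeR adjusted p = 7.10e-05), under the fold threshold. *Amot* was lower in double-positive cells (113 ± 97.8 CPM) than in *Foxe1*-only cells (569.6 ± 283 CPM). Among thyroid cells with no UMI of *Nkx2-1*, *Hhex* or *Pax8*, E8.5 null A and B had 852 and 658 CPM and WT A and B had 139 and 195 CPM, a description with no test. The E8.5 call was lost without WT A (log2 fold change 1.13, edgeR adjusted p = 0.191). In Pharyngeal endoderm, *Amot* stood at 132 and 105 CPM in E8.5 null and 122 and 92.9 CPM in WT libraries (log2 fold change 0.18, SE 0.36, edgeR adjusted p = 1.00).

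*Pax1* was the gene called lower at E8.5. It encodes a paired-box factor of the pharyngeal pouches and the sclerotome, and lies on chromosome 2 from 147361925 to 147393295 on the plus strand (GRCm38). It stood at 3.49 and 0 CPM in null A and B against 33.6 and 64.8 CPM in WT A and B (log2 fold change -4.10, SE 0.62, edgeR adjusted p = 0.00118). At E9.5 it was at 30.7 and 20.3 CPM in null A and B and at 16.1, 33.7 and 32.8 CPM in WT A, B and D, and the groups overlapped (log2 fold change -0.08, SE 0.39). The difference between the stages was called (log2 difference 4.02, SE 0.75, edgeR adjusted p = 0.0334), among 2 genes (0.0278%) called in that contrast. It was lost in 10 of 17 alternatives. These were DESeq2 and limma-voom (4.17 and 4.07, adjusted p = 0.313 and 0.999), libraries of at least 5 cells (3.95, edgeR adjusted p = 0.282), leaving out both E9.5 null A and WT A (3.46, edgeR adjusted p = 1.00), and leaving out any 1 of E8.5 null A, null B and WT B and E9.5 null A, WT A and WT B (3.46 to 7.78, edgeR adjusted p = 0.0597 to 1.00). In Pharyngeal endoderm, *Pax1* lay the other way at E8.5, at 41.0 and 35.9 CPM in null and 13.6 and 11.7 CPM in WT libraries, which was not called (log2 fold change 1.63, SE 0.38, edgeR adjusted p = 0.320). Differences between the cell types in the genotype effect were not tested, for *Pax1* or any other gene. In double-positive cells *Pax1* had no UMI, and *Foxe1*-only cells had 14.6 ± 20.3 CPM. The E8.5 call was lost without WT B (log2 fold change -3.54, edgeR adjusted p = 0.123), with limma-voom (-4.13, adjusted p = 0.535) and with the E8.5 libraries alone (-4.08, edgeR adjusted p = 0.195).

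The promoters of these genes, from 250 bases before to 50 after a transcript start in RefSeq (GRCm38.p6), are shown because *Amot* and *Pax1* had the smallest p in each direction. They were searched on both strands for TTCNNNGAA, the palindromic core to which STAT dimers bind, and matches stand in capitals. The *Amot* window on chrX:145487590-145487889 (minus strand) held 1 match, starting at base 107, and the *Pax1* window on chr2:147364744-147365043 (plus strand) held none. The windows of *Nnat*, *Cwc22* and *Hesx1*, searched likewise, held none either, so that 1 of 5 windows held a match. The *Amot* and *Pax1* windows surround a RefSeq start that lies inside the gene span given above, downstream of its 5′ end. Of 32851 promoters of this length in the table, 8.30% held a match. A match is a description of the letters and shows no binding.
Amot: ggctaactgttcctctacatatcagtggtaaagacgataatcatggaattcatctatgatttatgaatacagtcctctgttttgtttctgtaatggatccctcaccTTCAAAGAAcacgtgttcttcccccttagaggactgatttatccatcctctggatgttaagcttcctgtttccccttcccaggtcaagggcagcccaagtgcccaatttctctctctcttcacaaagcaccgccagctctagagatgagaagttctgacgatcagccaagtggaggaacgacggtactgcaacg
Pax1: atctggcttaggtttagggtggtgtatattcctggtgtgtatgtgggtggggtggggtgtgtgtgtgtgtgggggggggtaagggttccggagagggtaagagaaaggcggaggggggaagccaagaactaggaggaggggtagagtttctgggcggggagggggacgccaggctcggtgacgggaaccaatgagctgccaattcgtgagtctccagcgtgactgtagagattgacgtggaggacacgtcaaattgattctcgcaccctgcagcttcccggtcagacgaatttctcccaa

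*Nnat*, an imprinted gene for a small membrane protein, was also higher at E8.5, at 821 and 736 CPM in null A and B against 232 and 348 CPM in WT A and B (log2 fold change 1.43, SE 0.22, edgeR adjusted p = 0.0210). At E9.5 it lay the other way in the libraries tested, at 158 and 165 CPM in null A and B against 307, 223 and 396 CPM in WT A, B and D (log2 fold change -0.93, SE 0.21, edgeR adjusted p = 0.403). Null C and D, with 9 and 11 cells, had 316 and 333 CPM, within the WT range. The difference between stages was called (log2 difference -2.37, SE 0.31, edgeR adjusted p = 0.00619), but was lost in 5 of 17 alternatives. These were libraries of at least 5 cells (-1.88, edgeR adjusted p = 1.00), leaving out both E9.5 null A and WT A (-1.71, edgeR adjusted p = 1.00), leaving out null cells with no tdTomato UMI (-2.85, edgeR adjusted p = 1.00) and leaving out E8.5 null A or null B (-2.32 and -2.42, edgeR adjusted p = 0.0832 and 0.0805). The E8.5 call on *Nnat* was lost without null A, null B or WT A (log2 fold change 1.38, 1.48 and 1.18, edgeR adjusted p = 0.165, 0.0845 and 0.288) and without E9.5 null A and WT A (1.44, edgeR adjusted p = 0.909). It was also lost with libraries of at least 5 cells and without null cells lacking a tdTomato UMI (1.44 and 1.48, edgeR adjusted p = 1.00 and 0.802). In Pharyngeal endoderm *Nnat* ranged from 13.8 (E9.5 null B) to 349 CPM (E9.5 WT D) and was not called in either stage.

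*Hesx1*, a homeobox repressor of the anterior pituitary and forebrain, was called over both stages (log2 fold change 2.48, SE 0.51, edgeR adjusted p = 0.0460). At E8.5 it was at 24.5 and 57.2 CPM in null (35 and 21 UMIs) against 0 and 5.89 CPM in WT libraries (0 and 2 UMIs). At E9.5 it was at 21.1 and 21.4 CPM in null A and B against 6.02, 2.59 and 11.9 CPM in WT A, B and D. Null C and D had 3.04 and 0 CPM. Double-positive cells had 0.434 CPM of *Hesx1* and *Foxe1*-only cells 45.2 ± 39.0 CPM. The *Hesx1* call was lost on leaving out any 1 of 7 libraries (all but E8.5 null A and E9.5 WT D), with a log2 fold change of 2.02 (without E8.5 WT A, edgeR adjusted p = 0.278) to 4.58 (without E8.5 WT B, edgeR adjusted p = 0.0785). It was also lost with DESeq2, limma-voom and without null cells lacking a tdTomato UMI (log2 fold change 2.64, 2.33 and 2.34, adjusted p = 0.192, 0.582 and 0.177). Without E9.5 null A and WT A *Hesx1* did not pass the filter on low counts and has no value.

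*Irx1*, an Iroquois homeobox gene, was the other gene called lower over both stages (log2 fold change -2.12, SE 0.39, edgeR adjusted p = 0.00940). At E8.5 it was at 2.80 and 10.9 CPM in null (4 UMIs each) against 21.4 and 38.3 CPM in WT libraries (7 and 13 UMIs). At E9.5 it was at 7.40 and 16.9 CPM in null A and B against 40.2, 44.1 and 29.9 CPM in WT A, B and D. The null C and D libraries, at 18.2 and 10.3 CPM, also lay below all 3 WT libraries. Double-positive cells had 0 CPM of *Irx1* and *Foxe1*-only cells 11.2 ± 13.2 CPM. In Pharyngeal endoderm *Irx1* was at 83.8 and 103 CPM in E8.5 null and 115 CPM in both WT libraries (log2 fold change -0.36, edgeR adjusted p = 1.00). The *Irx1* call was lost without null A or WT B of E8.5 (log2 fold change -1.49 and -1.87, edgeR adjusted p = 0.228 and 0.234), and without E9.5 null A and WT A (-1.89, edgeR adjusted p = 0.0892), as with DESeq2 (-2.07, adjusted p = 0.0639). Over both stages, the libraries of the genotypes did not overlap at either stage for 6.73% of genes tested.

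*Cwc22*, a splicing factor, was the gene called at E9.5. It was at 171 and 158 CPM in null A and B, 115 and 189 CPM in null C and D, and 42.2, 31.1 and 22.4 CPM in WT A, B and D (log2 fold change 2.42, SE 0.24, edgeR adjusted p = 3.77e-07). At E8.5 it was at 115 and 161 CPM in null and 76.3 and 67.8 CPM in WT libraries (log2 fold change 0.88, SE 0.27, edgeR adjusted p = 0.612). The gene lies on chromosome 2 from 77881159 to 77946375 (GRCm38), and copies of it vary in number between mouse stocks, so its reads may be shared between copies. In Pharyngeal endoderm *Cwc22* was at 153 to 184 CPM in the 4 E9.5 null and 36.0 to 42.4 CPM in the 4 WT libraries (log2 fold change 2.12, SE 0.12, edgeR adjusted p = 1.93e-14). The tests in Pharyngeal endoderm took in the 11 libraries with more than 15 such cells. E9.5 WT C, with 14, has a level but did not enter them. *Cwc22* was also near equal in double-positive and *Foxe1*-only cells (109 and 132 CPM). The E9.5 call held in 18 of 18 alternative settings.

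**Figure D5:**
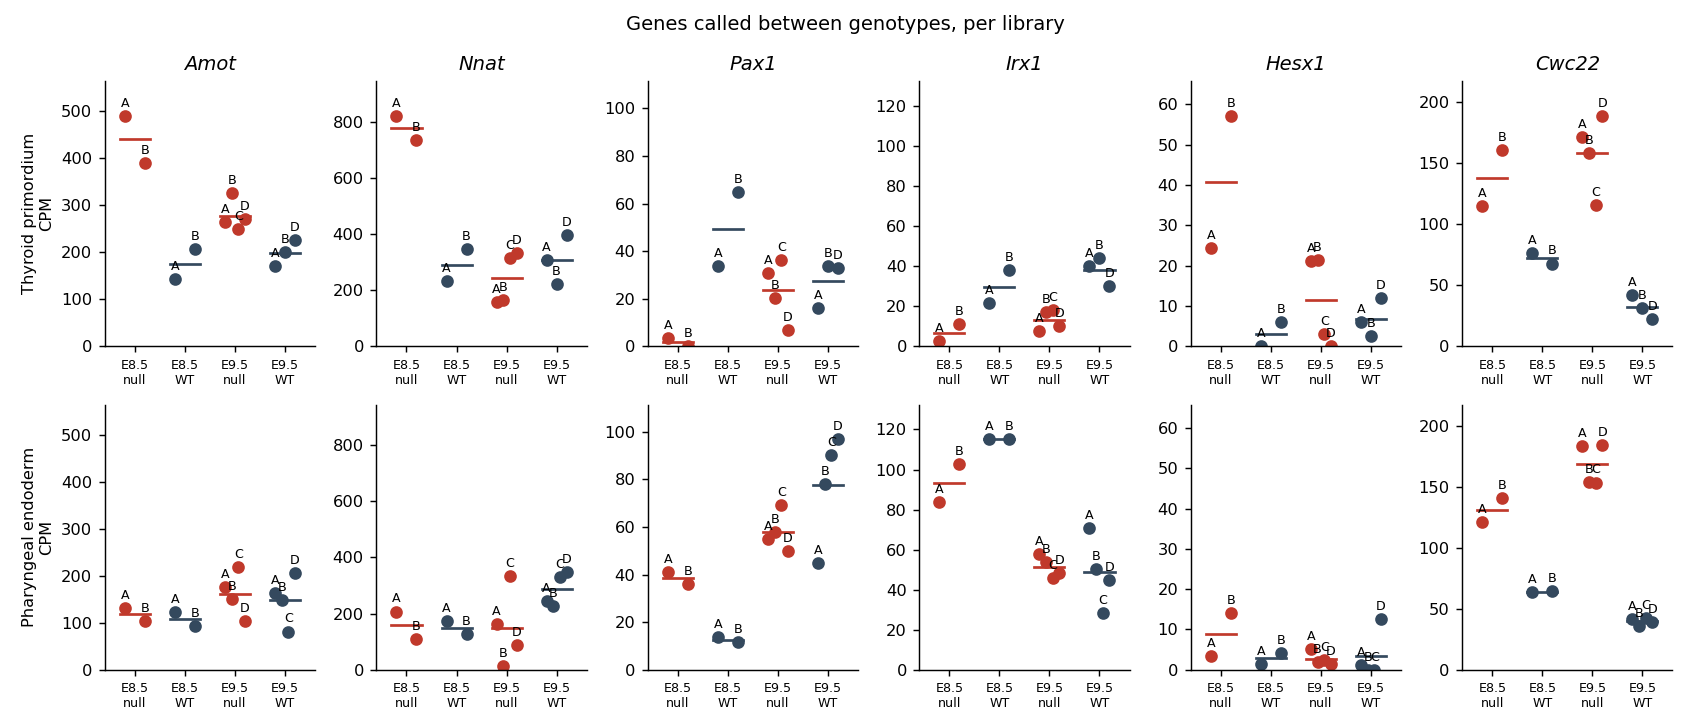
Level in CPM (linear axes) of genes called between genotypes, in Thyroid primordium cells (top) and Pharyngeal endoderm (bottom), with 1 point per library (letters), red null and dark blue WT, and group means as lines. *Cwc22* was higher in null libraries in both cell types, while *Amot* in E8.5 thyroid cells was at 490.5 and 389.7 CPM in null and 143 and 206 CPM in WT libraries.

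Genes of the STAT3 pathway itself were not called in either direction, where 0.0556% of all genes tested were called at E8.5 and 0.0139% at E9.5. Of 16 components of JAK-STAT signalling 4 passed the filter on low counts, with a median log2 fold change of -0.36 at E8.5 and -0.35 at E9.5, against -0.0021 and -0.0049 over all genes tested. The receptor subunits *Il6st* (gp130) and *Lifr* had log2 fold changes of -0.74 (SE 0.57) and -0.92 (SE 0.68) at E8.5, and the kinase *Jak1* 0.77 (SE 0.52). Of 20 known STAT3 response genes 11 were tested, with medians of -0.13 and 0.07. *Socs3*, the feedback inhibitor, had between 1 and 14 UMIs in a library and did not pass the filter. *Ccnd1* (cyclin D1) was at 55.9 and 59.95 CPM in E8.5 null against 91.5 and 124 CPM in WT libraries (log2 fold change -0.92, SE 0.27, edgeR adjusted p = 0.535), and *Bcl2l1*, which protects from cell death, was at 54.5 and 59.95 against 15.3 and 44.2 CPM (log2 fold change 0.90, SE 0.38, edgeR adjusted p = 0.888). At E9.5 neither had an unadjusted p under 0.05. The E9.5 FGF list had 4 of 9 tested members lower at an unadjusted p under 0.05 and a median of -0.54, against 170 of 7195 genes in that direction, and none of the 4 was called. The lists for Hedgehog, BMP, Wnt and retinoic acid signalling, survival and the cell cycle had no member called between genotypes at either stage. With 4 of 7195 genes called at E8.5 and 1 at E9.5, a list with none called is no result about its members. Over both stages 6 of 23 cell cycle genes were lower and 1 was higher at an unadjusted edgeR p under 0.05. Over all genes tested these counts were 238 and 233 of 7195.

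Transcripts listed for other tissues differed between genotypes in part. Summed haemoglobin, which thyroid cells do not make, was at 1148 and 316 CPM in E8.5 null and 1392 and 981 CPM in WT libraries. At E9.5 it was at 7.90 to 61.8 CPM in the 4 null and 236 to 1072 CPM in the 4 WT libraries, which did not overlap. Genes of neural crest summed to 34.4 to 42.9 CPM in E9.5 null and 50.7 to 133 CPM in E9.5 WT libraries, and those of mesenchyme to 134 to 226 and 228 to 484 CPM, over 8 and 10 genes. Members of both lists were also present in E9.5 Pharyngeal endoderm, with *Tfap2a* at 19.5 to 51.7 CPM and *Prrx2* at 86.6 to 221 CPM. These sums are thus not limited to transcripts of other tissues. Ventral forebrain genes, with 10 members, summed to 74.8 to 106 CPM in E8.5 null and 15.3 to 38.3 CPM in E8.5 WT libraries, and *Hesx1* is a member of that list. No list named here was without a UMI for any of its genes. The part of such transcripts in the results was not tested.

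Change from E8.5 to E9.5 was tested in host and null cells separately. In WT cells 75 of 7195 genes were called (1.04%), 40 higher at E9.5 (0.556%) and 35 lower (0.486%). In null cells 131 were called (1.82%), 67 higher (0.931%) and 64 lower (0.890%). Of the higher genes, 21 were called in both, 52.5% of the WT and 31.3% of the null calls. Of the lower genes 20 were shared, 57.1% and 31.3%. The direction was the same in the other genotype for 38 of 40 and 34 of 35 of the WT calls. The share of all genes tested with the same direction in both genotypes was not counted, so these counts have no background to be set against. Levels of single genes below are those of libraries with at least 5 cells unless WT C is named. The WT and null contrasts use different libraries, and stage and library batch cannot be told apart. Haemoglobin was lower at E9.5 in null cells, and cells with *Nkx2-1*, *Hhex* or *Pax8* were 57.6% at E8.5 and 26.3% at E9.5, and the part of either in these calls was not tested. The WT count was 30 without E8.5 WT A, 21 without E8.5 WT B and 35 without E9.5 null A and WT A. The null count was 71 without E8.5 null B, 63 without E9.5 null A and 87 without E9.5 null B.

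Of the pharyngeal list, *Nkx2-3*, *Nkx2-5* and *Otx2* fell. *Isl1*, another homeobox gene of that list, was at 200 to 259 CPM at E8.5 and 143 to 233 CPM at E9.5 and was not called. *Nkx2-3*, a homeobox gene of the pharyngeal floor, was at 463 and 649 CPM in E8.5 null and 385 and 333 CPM in E8.5 WT libraries. At E9.5 it was at 118 to 213 CPM in the 4 null and 60.2, 109 and 131 CPM in WT A, B and D (log2 fold change -1.94 in WT, SE 0.30, edgeR adjusted p = 0.0103, and -2.11 in null, SE 0.28, edgeR adjusted p = 0.00368). *Nkx2-5*, the heart and pharyngeal homeobox factor, went from 122 to 256 CPM over the E8.5 libraries to 29.3 to 55.0 CPM at E9.5, with 87.0 CPM in the 4 cells of WT C (log2 fold change -1.88 in WT and -2.24 in null). *Otx2*, a factor of the head and anterior endoderm, fell by 2.33 on the log2 scale in WT and by 1.85 in null. It was at 75.5 and 106 CPM in E8.5 null and 33.6 and 50.1 CPM in E8.5 WT libraries. In the 13 genes of the pharyngeal list, of which 12 were tested, these 3 were called lower in both genotypes. *Pax1* was called higher in null cells (log2 fold change 3.06, SE 0.61, edgeR adjusted p = 0.00417), a call lost without E9.5 null A (2.71). Its E8.5 level rested on 5 and 0 UMIs in null A and B. Over all genes tested 0.486% were called lower in WT and 0.890% in null cells, and 0.931% higher in null cells. In WT cells the calls on *Nkx2-3* and *Nkx2-5* were lost without either E8.5 library or E9.5 WT B, that on *Nkx2-5* also without E9.5 WT D, and that on *Otx2* without E8.5 WT B (log2 fold change -2.05 to -1.69 over these, edgeR adjusted p = 0.0543 to 0.262). In null cells all 3 were also called on leaving out any 1 library, with 1 library left in the null group of that stage when it was a null one.

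*Ttn* and *Rbm24*, genes of striated muscle, fell as well. *Ttn*, the sarcomere protein titin, was at 39.1 and 21.8 CPM in E8.5 null, 42.7 and 41.3 CPM in E8.5 WT and at most 9.52 CPM in any E9.5 library (log2 fold change -3.75 in WT and -2.54 in null). *Rbm24*, a splicing regulator of striated muscle, was at 41.3 to 76.9 CPM at E8.5 and at 6.02 to 16.4 CPM in the E9.5 libraries other than null D (72.1 CPM). The 10 genes of the heart list summed to 241 to 330 CPM in the E8.5 libraries and to 64.8 to 119 CPM at E9.5, a sum to which *Nkx2-5* gave 142 of 266 CPM in E8.5 null A and 256 of 330 CPM in null B. Of 4 tested members, *Nkx2-5* and *Ttn* were the 2 called in each genotype, where 0.486% of all genes tested were called lower in WT and 0.890% in null cells. The sarcomere gene *Myl7* was at 17.7 to 27.5 CPM at E8.5 and 10.4 to 27.5 CPM at E9.5 and was not called (log2 fold change -0.68, SE 0.51, in WT and -0.39, SE 0.40, in null). *Upp1*, uridine phosphorylase, was at 30.5 to 76.6 CPM and then at most 6.34 CPM, and *Aard* at 23.8 to 85.4 CPM and then at most 7.77 CPM. The *Aard* call held in both genotypes on leaving out any library, while that on *Ttn* was lost in null cells without E8.5 null A or E9.5 null B (-1.96 and -1.86, edgeR adjusted p = 0.323 and 0.0893). In WT cells *Rbm24* was not called without E8.5 WT A (-2.03, edgeR adjusted p = 0.121), nor *Upp1* without E8.5 WT B (-2.48, edgeR adjusted p = 0.152). *Rbm24* was called in neither genotype without E9.5 null A and WT A (-1.95 in WT and -1.46 in null, edgeR adjusted p = 0.282 and 0.138).

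*Trp63* and *Perp*, genes of stratified epithelium, rose. *Trp63*, the p63 factor of basal epithelium, was at 14.0 and 0 CPM in E8.5 null and 0 and 2.95 CPM in E8.5 WT libraries, and at 17.2 to 51.6 CPM in the E9.5 null and 18.1 to 50.7 CPM in the E9.5 WT libraries (log2 fold change 4.29 in WT, SE 1.04, edgeR adjusted p = 0.0398, and 1.95 in null, SE 0.50, edgeR adjusted p = 0.0412). *Perp*, a desmosomal target of p63, was at 5.45 to 20.3 CPM and then at 42.2 to 124 CPM. Both were called in both genotypes, 2 of the 3 tested genes of the surface ectoderm list. Over all genes tested 0.556% were called higher in WT and 0.931% in null cells. *Cyp26b1*, which degrades retinoic acid, was at 0 to 10.5 CPM at E8.5 and at 26.1 to 44.1 CPM at E9.5 except in null D (6.87 CPM), with a log2 fold change of 4.13 in WT and 1.82 in null. *Pdgfc*, a platelet-derived growth factor, was at 0 CPM in both E8.5 null and 3.05 and 2.95 CPM in the WT libraries, and at 17.2 to 66.3 CPM at E9.5. The guidance ligands *Sema3a* and *Sema3d* and the factor *Dach1* were also called in both. Several of these calls depended on single libraries. In WT cells the call on *Trp63* was lost without any of E8.5 WT A, WT B, E9.5 WT A or WT D (log2 fold change 3.41 to 7.58, edgeR adjusted p = 0.0669 to 0.311), that on *Perp* or *Pdgfc* without either E8.5 WT library, and that on *Cyp26b1* without E8.5 WT B (3.19, edgeR adjusted p = 0.159). In null cells those on *Pdgfc* and *Dach1* held on leaving out any library, and that on *Trp63* was lost without E9.5 null A (1.95, edgeR adjusted p = 0.210) and 5 other libraries. The null calls on *Perp* and *Cyp26b1* were lost without E9.5 null A (1.60 and 1.83, edgeR adjusted p = 0.0589 and 0.0734), and those on *Sema3a* and *Sema3d* in both genotypes without E9.5 null A and WT A (edgeR adjusted p = 0.0929 to 0.254). Without these 2 libraries the calls on *Trp63* (4.35 in WT and 1.81 in null, edgeR adjusted p = 0.134 and 0.168) and *Cyp26b1* (4.26 and 1.38, edgeR adjusted p = 0.0534 and 0.272) were lost in both genotypes, and that on *Pdgfc* in WT cells (2.99, edgeR adjusted p = 0.178). *Dach1* did not pass the filter on low counts there.

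Of the 23 genes of the cell cycle list 3 were called in null cells, all lower. Over all genes tested 0.890% were called lower in null and 0.486% in WT cells. *Mki67*, the proliferation marker Ki-67, was at 252 and 259 CPM in E8.5 null and 91.1 to 141 CPM in E9.5 null libraries (log2 fold change -1.06, SE 0.17, edgeR adjusted p = 3.99e-04). *Cdk1* fell by 1.07 and *Plk1* by 1.23 on the log2 scale. Without E9.5 null A none of the 3 was called (-0.97, -0.81 and -1.31, edgeR adjusted p = 0.0157, 0.330 and 0.0698, the first under the fold threshold alone), and without E9.5 null A and WT A that on *Cdk1* was lost (-1.04, edgeR adjusted p = 0.101). In WT cells none was called, and *Mki67* was at 278 and 271 CPM and then at 165, 209.9 and 210.4 CPM (log2 fold change -0.62, SE 0.17, edgeR adjusted p = 0.0597). The list as a whole lay alike in both genotypes, at a median log2 fold change of -0.27 in WT and -0.30 in null cells. At an unadjusted edgeR p under 0.05, 8 members were lower in WT and 10 in null cells, and 1 was higher in each. For the difference between the stage effects the list's median was -0.034, and 0 members had an unadjusted edgeR p under 0.05. *Ccnd1* rose in null cells, from 55.9 and 59.95 CPM to 91.1 to 172 CPM (log2 fold change 1.30, SE 0.23, edgeR adjusted p = 9.05e-04), and in WT cells had a log2 fold change of 0.13 (SE 0.23). The stage effects on *Ccnd1* did not differ detectably (log2 difference 1.17, SE 0.33, edgeR adjusted p = 1.00). The fate factors were not called between stages in either genotype.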

How the data were processed

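Per the labels and the study's methods, cells were sorted by tdTomato and sequenced by 10x 3′ v3 chemistry. The authors ran Cell Ranger (mm10), filtered cells, called doublets and transferred cell type labels from an atlas. The deposited matrix holds raw UMI counts, and the deposited cell table holds a label fraction (the share of 25 nearest atlas cells with the label), mitochondrial percent and a doublet score. Of 41832 cells, 3395 doublets and 596 tdTomato-negative cells with a tdTomato UMI were left out, leaving 37841 in 87 labels. No column of per-sample values was unmatched (0).

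UMIs were summed per library over Thyroid primordium cells. Libraries with more than 15 cells entered 1 fit over both stages and genotypes in edgeR 4.0.16 (quasi-likelihood test, TMM, R 4.3.3), with Benjamini-Hochberg adjustment over 7195 genes. Of 29453 genes, 8478 (predicted, antisense, mitochondrial and the like) were left out of tests. Cell type abundance was tested likewise on cells per library. Shares and detection, in cells thinned to 10000 UMIs, were compared by exact two-sided permutation of genotype within stages (Python 3.11.15, scipy 1.17.1). Alternatives were DESeq2 1.42.0, limma-voom 3.58.1, other scaling, filters and cell minimums, and leaving out each library. Leaving out E9.5 null A and WT A together (for expression, from the libraries with at least 5 cells) was chosen after seeing the data. The fits were tested on simulated data.

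The members, lists and tests were chosen with earlier results of these data known. Named genes were the fate factors, JAK-STAT components and STAT3 response genes, the 10 called genes of largest fold change without overlap per direction, the 3 of smallest p where fewer than 3 were called, called or highest members of other lists, and the 12 of largest ratio per direction in descriptions. *Amot* over both stages and the genes set beside the double-positive cells for comparison were added after values were seen. Positions are from GENCODE (GRCm38) and promoters from RefSeq (GRCm38.p6). Some called genes and list members are not reported here. Intervals and floors cover counting error only.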

Additional observations from a re-analysis of the deposited data

Results flagged for a closer look

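*Foxe1* in Thyroid primordium cells of E9.5 null D stood at 477 CPM, far from the other 3 null libraries of that stage (306 to 328 CPM). Of 19 groups of 4 libraries or more examined in this way, chance flags about 5 percent, and this was the 1 found.

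The genotype effect differed between E9.5 and E8.5 for 2 genes, by the interaction term of the edgeR fit. *Nnat* had a log2 difference of -2.37 (edgeR adjusted p = 0.00619) and *Pax1* of 4.02 (edgeR adjusted p = 0.0334). The call on *Nnat* was lost in 5 and that on *Pax1* in 10 of 17 alternatives. Both were lost with libraries of at least 5 cells (log2 difference -1.88 and 3.95, edgeR adjusted p = 1.00 and 0.282) and without E9.5 null A and WT A (-1.71 and 3.46, edgeR adjusted p = 1.00 for both).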

How the results depend on the processing

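No paired analysis was possible because the library names match no sample title, so the embryo pool of a library is unknown. Few cells and libraries limit all results, and in a library of few cells a level can rest on 1 cell. Of 1387 alternative values for single genes, 1091 kept direction and side of the threshold, 287 lost their call and 9 turned. The abundance results kept both in all alternatives, with log2 fold changes of 1.26 to 1.64 at E8.5 and 0.06 to 0.63 at E9.5. The thyroid share passed the threshold only as a share of all cells (0.671 percentage points). With all genes that have a UMI the calls numbered 15 at E8.5, 17 at E9.5, 24 over both stages, 4 for the interaction, 168 between stages in WT and 225 in null, where more genes were tested. With DESeq2 they were 2 over both stages, 1 for the interaction, 41 in WT and 48 in null, and with limma-voom 1 for the interaction and 42 in WT. With at least 5 cells a library they were 2 at E8.5, 2 at E9.5 and 0 for the interaction by edgeR, where 205 genes had an unadjusted p under 0.05. Without null cells lacking a tdTomato UMI the interaction gave 1. Without E9.5 null A and WT A there were 2 at E8.5, 0 for the interaction by edgeR (177 at an unadjusted p under 0.05) and 35 in WT. With E9.5 libraries alone there were 3 at E9.5. Leaving out 1 library gave 1 to 7 calls at E8.5, 1 to 6 at E9.5, 4 to 11 over both stages, 0 to 3 for the interaction, 21 to 105 in WT and 63 to 151 in null. Leave-one-out values of *Foxe1* ran from -0.44 to 1.00 at E8.5 and -0.20 to 0.17 at E9.5, and at E9.5 those of *Pax8* from -2.27 to 1.20, *Nkx2-1* from -1.14 to 1.90 and *Hhex* from -3.15 to 2.14. The *Pax8* value at E9.5 was -0.55 with limma-voom and -0.79 without tdTomato-negative null cells, and that of *Foxe1* 0.14 with at least 5 cells and 0.040 without E9.5 null A and WT A. Except where a setting tests other genes or fewer libraries, the cause was not tested.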
